A study of Bos taurus with 15 samples.

Results

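Immediate early genes and stress genes are switched on within minutes of a disturbance, and the chopping, warming, and enzyme digestion that precede single-cell sequencing are such a disturbance. Levels are given here for FOS, FOSB, JUN, JUNB, EGR1, ATF3, IER2, IER3, DUSP1, and DNAJB1 in the digestive organs of Holstein cattle. These 10 genes were taken by symbol from the 27270 genes of the files, and all 10 were found under 1 identifier each. The question was whether their level follows the library, and with it the dissociation, across cell lineages, or follows one lineage. Of 15 droplet libraries, 11 were of newborn (NB) calves and 4 of an adult (AD) cow. The NB libraries cover 6 parts of the intestine (from duodenum to rectum), the omasum and reticulum of the forestomach, the abomasum, the salivary gland, and the liver. The AD libraries cover the duodenum, jejunum, cecum, and colon.

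All 4 AD tissues were taken from a single cow in lactation, whereas the NB tissues came from 3 calves, without a statement of which calf gave which library. No age in days was given in the sources used here. The AD duodenum and cecum were digested with a Lamina Propria Dissociation Kit for 30 min, and the AD jejunum and colon with a Multi Tissue Dissociation Kit 2 for 41 min. The 6 NB intestinal tissues were exposed to EDTA and to trypsin before a lamina propria kit was applied for 30 min. The NB reticulum, omasum, and abomasum received the same EDTA and trypsin steps, and then collagenases, hyaluronidase, and dispase for 30 min. The NB liver was digested with collagenase and papain and the NB salivary gland with collagenase and dispase, each for 20 min. Every tissue and stage is 1 library, so there is no replicate error and no test between conditions, and stage, animal, and dissociation cannot be told apart.

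The 10 genes act in early responses of a cell to signals and stress. FOS, FOSB, JUN, and JUNB encode subunits that pair to form the transcription factor AP-1, ATF3 can pair with JUN proteins, and EGR1 is a zinc finger transcription factor induced by growth factor signals. IER2 and IER3 are small immediate early proteins, DUSP1 is a phosphatase that switches off MAP kinases, and DNAJB1 is the HSP40 cochaperone that delivers unfolded proteins to HSP70. In living tissue the same genes respond to growth factors, cytokines, and contact with microbes, so their RNA alone does not tell a response in the animal from a response in the tube.

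A lineage was read from 1 marker rule. A barcode was counted as EPCAM or KRT14 (epithelial), CD3E (T cell), C1QA (macrophage), COL1A2 (fibroblast), or PECAM1 when it held at least 1 UMI of that marker and none of the markers of the other lineages. A UMI (unique molecular identifier) stands for 1 captured RNA molecule. Of 119798 barcodes that passed the filters, 82924 (69.2%) fell in 1 lineage, 17578 held markers of several lineages, and 19296 held none. The share in 1 lineage differed with stage, from 31.7% (ileum) to 66.2% (duodenum) in the NB intestine and from 71.9% (jejunum) to 85.8% (colon) in the AD libraries. The share with markers of several lineages ran up to 31.3% in the NB jejunum, and in the AD libraries from 7.18% to 13.2%. NB and AD levels thus describe different fractions of each library, and the part of this in the differences was not tested. Groups of a library and a lineage with at least 50 barcodes were used, which gave 63 of 75 possible groups. Levels are counts per 1000000 UMIs of the group (CPM). The 630 member values rest on 6 to 197323 UMIs (median 1210), 40 of them on under 50 UMIs, and none was 0. Intervals in parentheses are exact Poisson intervals at 95% and cover counting error only. Libraries held 17707625 to 129458578 UMIs, and the median barcode held 4399 to 8982 UMIs in NB libraries and 3553 to 3910 in AD libraries. Of 118026 barcode sequences, 1756 (1.49%) occurred in more than 1 library.

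The lineage labels were checked with genes that did not choose the barcodes. The own check genes summed to 1339 to 17326 CPM in EPCAM or KRT14 groups (CDH1, keratins, and others), 820 to 3647 CPM in CD3E groups (CD3D, CD2, LCK, and others), 7802 to 21792 CPM in C1QA groups (C1QB, CD163, and others), and 7393 to 39202 CPM in COL1A2 groups (COL1A1, DCN, and others). EPCAM or KRT14 groups held unlike epithelia. KRT5 was 0 in 10 of the 13 groups and reached 7612 CPM, and KRT8 ran from 2.22 to 3491 CPM. PECAM1 barcodes did not all pass as endothelial. In the AD duodenum the endothelial check genes summed to 21.5 CPM beside 146959 CPM of B and plasma cell genes, and in the NB liver to 192 CPM beside 2020 CPM of macrophage and 2204 CPM of neutrophil genes. B and plasma cell genes also exceeded endothelial genes in PECAM1 barcodes of the AD jejunum (49459 against 1100 CPM), AD colon (54588 against 1341 CPM), and NB colon (1988 against 1609 CPM). B and plasma cell genes exceeded the own check genes in other groups as well, namely CD3E barcodes of the AD duodenum (7511 against 1910 CPM), AD jejunum (4855 against 2331 CPM), AD cecum (4073 against 3300 CPM), and NB ileum (1453 against 820 CPM), C1QA barcodes of the AD duodenum (13683 against 12509 CPM) and AD colon (18627 against 16539 CPM), and EPCAM or KRT14 barcodes of the AD jejunum (10476 against 5025 CPM). All groups are therefore named by their marker, and B and plasma cell genes exceeded the own check genes in 12 of 63. The PECAM1 barcodes of the NB liver are among the 12 (199 against 192 CPM), although macrophage and neutrophil genes were higher there. Without these 12, the library and lineage spreads described next were 1.11 and 0.45 log2 units. The B and plasma cell genes reached 12701 to 18627 CPM in the C1QA barcodes and 2942 to 7511 CPM in the CD3E barcodes of the AD libraries, and their part in the member levels was not tested.

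The level of the 10 genes differed more between libraries than between lineages. The mean member level is the mean over the 10 genes of log2(CPM + 5), and an additive fit split it into a library effect and a lineage effect. The spread (root mean square) of the library effects was 1.05 log2 units, that of the lineage effects 0.42, and that of the residuals 0.53. Library effects spanned 3.18 log2 units and lineage effects 1.08. For each gene alone, the library spread exceeded the lineage spread in 10 of 10 members, against 39.8% of the 8183 genes with a mean of at least 10 CPM. The median library spread was 1.24 log2 units over the members and 0.33 over all genes tested, and the median lineage spread was 0.56 and 0.37. A library effect rests on 3 to 5 groups and a lineage effect on 11 to 13, so counting error and residual variation add more to the library spread. A gene with no true difference would mostly show the larger library spread for that reason, and the count of 10 of 10 is to be read with the sizes, beside a median residual spread of the members of 0.68 log2 units. The share over all genes rose to 73.2% when barcodes with markers of several lineages were admitted, and the members stayed at 10 of 10. Within the NB libraries alone, the spreads of the mean member level were 0.71 (library) and 0.50 (lineage), and the library spread was the larger in 9 of 10 members (32.6% of all genes), the exception being DUSP1 (0.64 against 0.80).

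**Figure D1:**
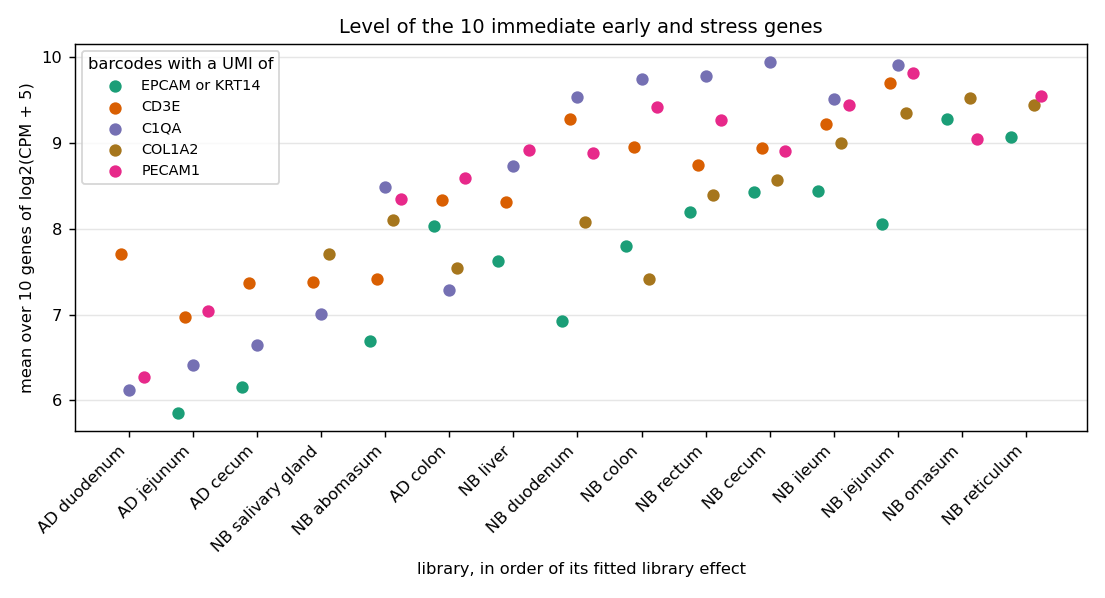
Mean over the 10 genes of log2(CPM + 5) in 63 groups of barcodes, with 1 point for each lineage marker (color) in each library, and libraries ordered by their fitted library effect. Points tend to rise from AD duodenum (effect −1.85) to NB reticulum (effect 1.33), but those of one library differ by up to 2.62 log2 units (NB duodenum). The C1QA points of the AD libraries lie between 6.12 and 7.29, and those of the 6 NB intestinal libraries between 9.52 and 9.95.

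ATF3 had the widest spread over libraries (1.72 log2 units), and its lineage spread was 0.64. DNAJB1 followed with a library spread of 1.38, DUSP1 and FOS with 1.30 each, and IER3 with 1.29. The narrowest library spreads were those of IER2 (0.65) and JUN (0.71), both still above the median of all genes. EGR1 depended least on lineage, with a lineage spread of 0.26 beside a library spread of 1.2. IER3 and DUSP1 depended most on lineage, each with a lineage spread of 0.74.

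**Figure D2:**
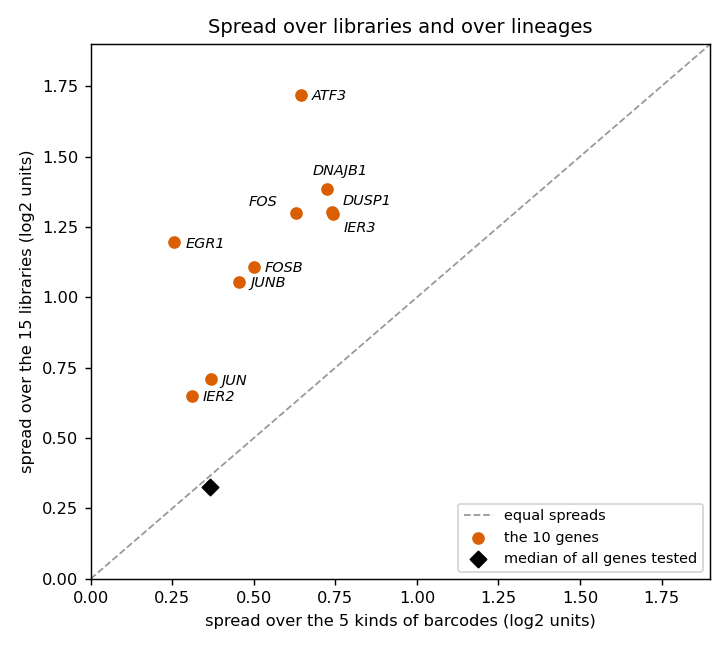
Spread of the fitted library effects (vertical axis) against the spread of the fitted lineage effects (horizontal axis), both in log2 units, for each of the 10 genes. All 10 points lie above the dashed line of equal spreads, and the diamond, the median of 8183 genes (0.37 and 0.33), lies just below it.

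The libraries fell in an order that did not match one dissociation protocol per level. The lowest effects on the mean member level were those of the AD duodenum (−1.85), AD jejunum (−1.73), and AD cecum (−1.49), then the NB salivary gland (−1.02) and NB abomasum (−0.43). The AD colon stood at −0.28 and the NB liver at 0.10. The 6 NB intestinal libraries ran from 0.31 (duodenum) to 1.13 (jejunum), and the NB omasum (1.26) and reticulum (1.33) were highest. These top 2 effects rest on 3 groups each, without CD3E or C1QA barcodes, and their rank differed with lineage. PECAM1 barcodes had a mean member level of 9.82 for NB jejunum, above reticulum (9.55) and omasum (9.05). COL1A2 levels were 9.44 (reticulum) and 9.52 (omasum) beside 9.35 for NB jejunum. EPCAM or KRT14 levels were 9.07 and 9.28, against at most 8.44 for the NB intestine. Fitted effects of libraries of one protocol were not always alike. The AD jejunum and AD colon shared a kit, a digestion time, and a cow and differed by 1.45 log2 units, and the NB abomasum lay 1.76 below the NB reticulum under the same enzymes. The 2 AD libraries of the lamina propria kit differed by 0.36, and the 6 NB intestinal libraries spanned 0.82. Protocols were not crossed with tissue or stage, so an effect of the protocol alone was not tested.

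Lineages tended to move together from library to library. The mean member level of one lineage correlated with that of another over libraries with a median Pearson r of 0.74 across the 10 lineage pairs (0.52 to 0.91, 9 to 13 libraries each). The mean over genes averages out the error of single genes. For single genes, the median over the 10 members of their median r was 0.73, and over all genes tested it was 0.33. The members had means of 180 CPM (IER3) to 2406 CPM (JUN), whereas genes were tested from a mean of 10 CPM. Counting error lowers r more at low levels, and the 2 medians were not matched for level. C1QA with PECAM1 barcodes gave the highest value (0.91, Spearman rho 0.75) and COL1A2 with PECAM1 barcodes the lowest (0.52, rho 0.52). In 5 PECAM1 groups (AD duodenum, AD jejunum, AD colon, NB colon, and NB liver) B and plasma cell or macrophage genes exceeded endothelial genes. These r values thus do not rest on endothelial cells throughout. Both lineages of a library share its animal, droplets, and depth, and 4 libraries share a cow, so these are descriptions without a p-value. Among single members, DNAJB1 (0.81), IER3 (0.80), and ATF3 (0.80) had the highest median r between lineages, and IER2 (0.44) and JUNB (0.51) the lowest. The lowest r of a single lineage pair was −0.29 for IER2, −0.02 for FOSB, 0.05 for JUN, and 0.14 for JUNB. For each other member it was 0.36 or more.

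**Figure D3:**
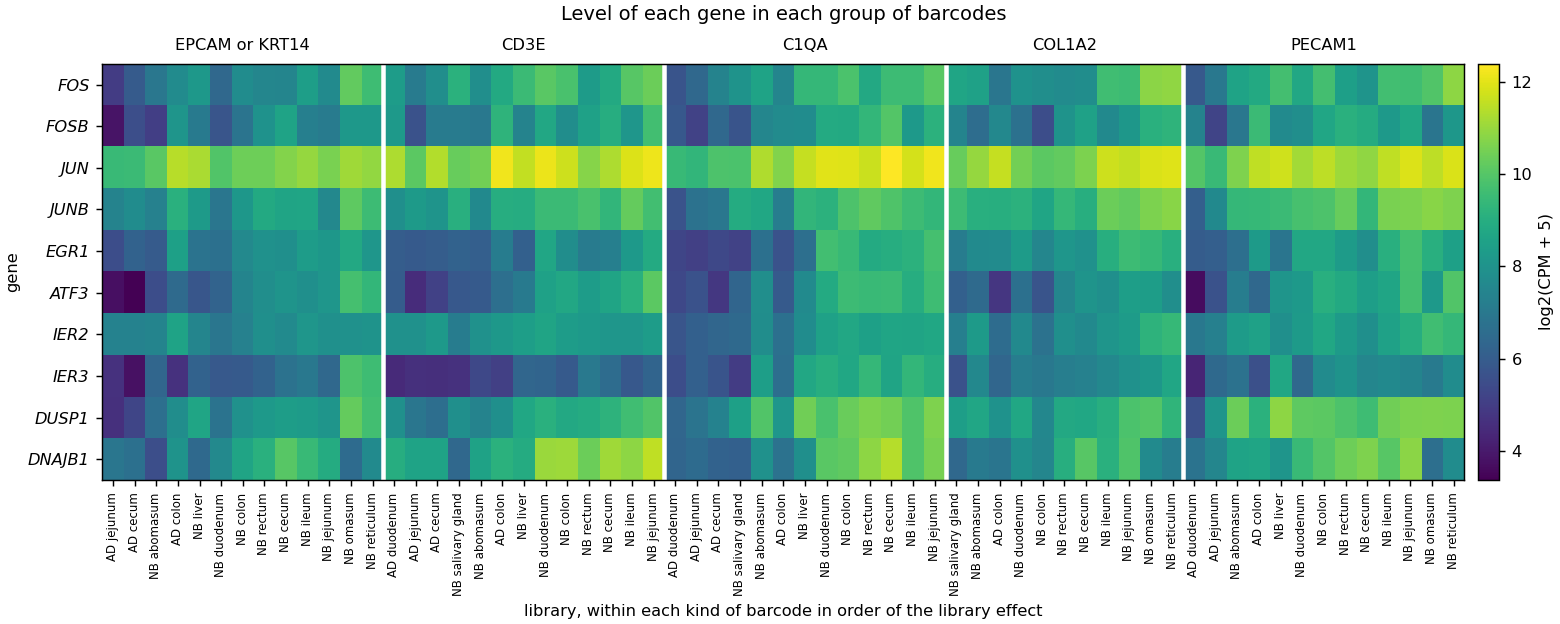
Level of each of the 10 genes (rows) in each group of barcodes (columns), as log2(CPM + 5) in color, with white lines between the lineage markers and libraries ordered by their library effect within each marker. ATF3 runs from 5.35 CPM in AD cecum EPCAM or KRT14 barcodes to 1109 CPM in NB jejunum CD3E barcodes. DNAJB1 is bright in the NB intestinal columns of CD3E and C1QA. It is less bright in the columns of NB omasum and reticulum, which have no CD3E or C1QA group.

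FOS (ENSBTAG00000004322), the AP-1 subunit most often read as a mark of recent stimulation, was highest in the forestomach. COL1A2 barcodes held 1902 CPM (1717 to 2101) in the NB reticulum and 1808 CPM in the NB omasum, and their other 9 groups held 117 to 781 CPM. EPCAM or KRT14 barcodes held 758 CPM in the NB reticulum and 1208 CPM in the NB omasum, above the 26.4 to 341 CPM of the other 11 libraries. Both forestomach libraries thus stood above every other library in barcodes of these markers. The EPCAM or KRT14 groups hold unlike epithelia, and the part of cell type in the difference was not tested.

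FOS in C1QA barcodes was 48.1 CPM in the AD duodenum, 81.4 CPM in the AD jejunum, 164 CPM in the AD cecum, and 173 CPM in the AD colon. In the 6 NB intestinal libraries it was 443 to 1079 CPM with a median of 743 CPM. The C1QA groups of both stages did not overlap. In CD3E barcodes the AD values were 327, 134, 223, and 459 CPM in the same order and the NB intestinal values 319 to 1310 CPM with a median of 970 CPM, so the ranges overlapped there.

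FOSB (ENSBTAG00000008182), the FOS paralog, had its highest level in C1QA barcodes of the NB cecum (996 CPM) and its lowest in EPCAM or KRT14 barcodes of the AD jejunum (9.35 CPM). The AD colon broke the order of the other AD libraries. Its CD3E barcodes held 600 CPM beside 45.6 CPM in the AD jejunum, 136 CPM in the AD cecum, and 302 CPM in the AD duodenum. The library effect on FOSB was 0.87 for the AD colon and −2.67 for the AD jejunum. These are different tissues of 1 cow digested with the same kit, and what the difference comes from was not tested. JUN (ENSBTAG00000004037), the main partner of FOS, had a like pattern, with an effect of 0.53 for the AD colon and −1.41 for the AD jejunum. JUN in CD3E barcodes was 4762 CPM in the AD colon and 1107 CPM in the AD jejunum, and the 9 NB libraries lay between 1241 and 4578 CPM.

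JUNB (ENSBTAG00000012046), an AP-1 subunit with weaker activity than JUN, was lowest in C1QA barcodes of the AD duodenum (46.9 CPM) and highest in PECAM1 barcodes of the NB omasum (1782 CPM). Its C1QA values of 106, 119, and 143 CPM in the AD jejunum, cecum, and colon lay below the 428 to 1179 CPM of all 9 NB libraries. In EPCAM or KRT14 barcodes the AD values of 165, 211, and 541 CPM lay inside the NB range of 117 to 1144 CPM.

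ATF3 (ENSBTAG00000008545), a stress-induced repressor and activator of the ATF/CREB family, separated the libraries most. Its C1QA level was 35.4, 45.5, 23.5, and 55.1 CPM in the AD duodenum, jejunum, cecum, and colon. It was 472 to 761 CPM (median 717 CPM) in the NB intestine, and 204 and 225 CPM in the NB liver and abomasum. The NB salivary gland (74.3 CPM) was nearest to the AD values. In CD3E barcodes the NB intestinal range of 323 to 1109 CPM lay above the 17.9 to 128 CPM of the 7 other libraries.

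EGR1 (ENSBTAG00000010069) drew the same division inside one lineage. In C1QA barcodes it was 32.8, 28.9, 35.2, and 44.9 CPM in the AD duodenum, jejunum, cecum, and colon, and 467 to 844 CPM (median 633 CPM) in the NB intestine. The other NB organs resembled the AD libraries more than the NB intestine, with 99.4 CPM in the abomasum, 96.2 CPM in the liver, and 30.6 CPM in the salivary gland. EPCAM or KRT14 barcodes had no such division. Their NB intestinal values of 100 to 320 CPM overlapped the 40.0, 69.6, and 354 CPM of the AD jejunum, cecum, and colon.

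IER2 (ENSBTAG00000016354), whose product regulates early transcription, had the smallest library spread over all libraries (0.65), and within the NB libraries JUN had the smaller one (0.55 against 0.58). In CD3E barcodes it was 238 to 302 CPM in the AD libraries and 137 to 393 CPM in the NB libraries, with medians of 265 and 292 CPM. Among the 4 lineages with at least 3 AD libraries, C1QA barcodes were the one in which the stages of the intestine did not overlap, with 49.2, 64.7, 76.3, and 100 CPM in the AD duodenum, jejunum, cecum, and colon, and 361 to 433 CPM in the 6 NB libraries.

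IER3 (ENSBTAG00000011358), which limits apoptosis after stress, followed lineage and library together. Its lineage effect was 1.28 in C1QA and −0.83 in CD3E barcodes. C1QA barcodes held 397 to 660 CPM in the NB intestine and CD3E barcodes of the same libraries 52.6 to 124 CPM. In the keratinizing epithelium of the forestomach, EPCAM or KRT14 barcodes held 760 CPM (NB reticulum) and 927 CPM (NB omasum), whereas the other 11 libraries held 8.81 to 122 CPM. The neutrophil check genes (S100A8, S100A9, and CSF3R) summed to 1763 and 2290 CPM in these epithelia. Any other epithelial group held at most 345 CPM of them. Whether neutrophils or the epithelium itself made that RNA was not tested, nor was any link of it to IER3.

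DUSP1 (ENSBTAG00000013863), the feedback phosphatase, was highest in PECAM1 and C1QA barcodes. PECAM1 barcodes of the 10 NB libraries held 759 to 1869 CPM, and those of the AD duodenum, jejunum, and colon held 42.3, 263, and 553 CPM. The highest PECAM1 value, of the NB liver, and the lowest, of the AD duodenum, came from groups whose endothelial check genes were low. In each of these AD groups B and plasma cell genes exceeded the endothelial ones, so the PECAM1 values do not compare like cells. C1QA barcodes held 76.8, 110, 162, and 269 CPM in the AD duodenum, jejunum, cecum, and colon and 354 to 1591 CPM in the 9 NB libraries.

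DNAJB1 (ENSBTAG00000016874) was highest in the NB intestine. In CD3E barcodes it was 1308 to 2959 CPM (median 2148 CPM) in the 6 NB intestinal libraries. The AD duodenum, jejunum, cecum, and colon held 504, 381, 387, and 553 CPM, and the NB abomasum, liver, and salivary gland 371, 480, and 80.9 CPM. C1QA barcodes held 952 to 2688 CPM (median 1333 CPM) in the NB intestine and 65.6 to 239 CPM in the 7 other libraries. PECAM1 barcodes held 716 to 1790 CPM in the NB intestine and 96.6 to 400 CPM elsewhere. The NB intestine was thus above every other library in 3 of 5 lineages, and in 2 when the PECAM1 groups were left out. The ranges overlapped in EPCAM or KRT14 barcodes because the NB duodenum (192 CPM) was below the AD colon (251 CPM) and the NB reticulum (199 CPM), and in COL1A2 barcodes because the NB colon (179 CPM) was below the NB omasum (199 CPM).

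The NB reticulum and omasum, highest for FOS, had DNAJB1 library effects of −0.38 and −0.97. Those of the NB intestine were 0.88 to 2.30, and those of the AD libraries −1.49 to −0.46. DNAJB1 levels of the NB reticulum and omasum were 199 and 88.0 CPM in EPCAM or KRT14, 143 and 199 CPM in COL1A2, and 213 and 96.6 CPM in PECAM1 barcodes. The difference DNAJB1 minus FOS on the log2(CPM + 5) scale was −1.90 to −3.70 in their 6 groups. It was 1.85 to 2.62 in the 5 groups of the NB cecum and 1.29 to 2.06 in those of the NB rectum. A low ratio also marked the NB liver (−0.60 to −1.76) and salivary gland (−1.87 to −2.69).

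**Figure D4:**
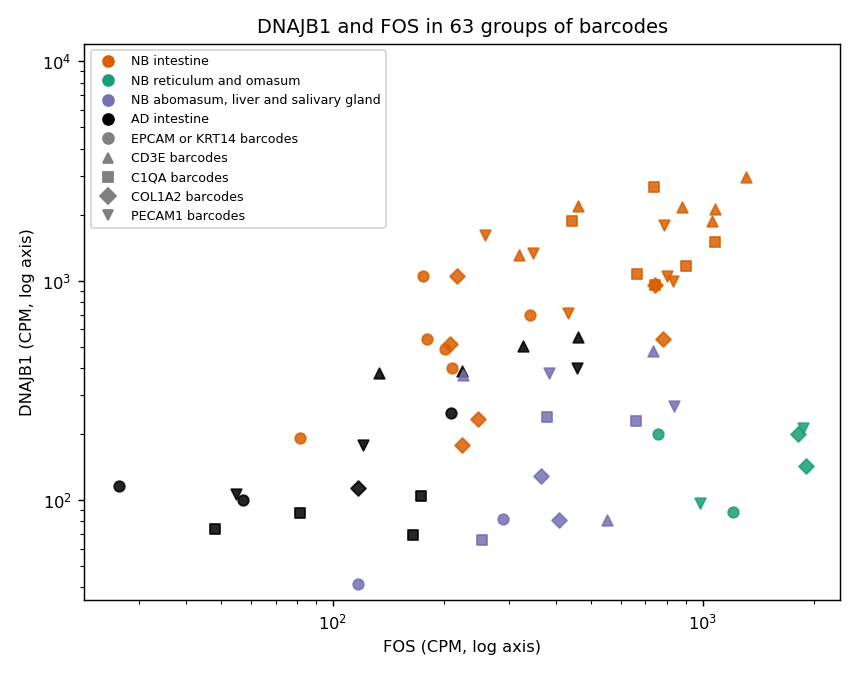
DNAJB1 against FOS in CPM on log axes for 63 groups, colored by kind of library and shaped by lineage marker. Groups of the NB intestine reach 2959 CPM of DNAJB1, groups of the NB reticulum and omasum combine 758 to 1902 CPM of FOS with at most 213 CPM of DNAJB1, and most AD groups are low for both.

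The NB intestine, and the NB reticulum with the omasum, were each compared with all other libraries on whether the ranges were apart, a comparison chosen after values had been seen. The 6 NB intestinal libraries lay above all other libraries for 6 of 10 members in C1QA barcodes (FOSB, JUN, EGR1, ATF3, IER2, and DNAJB1), against 1.11% of all genes tested. They did so for 4 members in CD3E barcodes (JUNB, ATF3, DUSP1, and DNAJB1; 1.82% of genes) and for DNAJB1 in PECAM1 barcodes (0.574%). No member did so in EPCAM or KRT14 (0.22%) or COL1A2 barcodes (3.18%). The NB reticulum and omasum lay above all other libraries for 6 members in COL1A2 barcodes (FOS, FOSB, JUN, JUNB, IER2, and IER3; 4.74% of genes). They did so for 5 members in EPCAM or KRT14 barcodes (FOS, JUNB, ATF3, IER3, and DUSP1; 9.2%) and for 3 in PECAM1 barcodes (FOS, JUNB, and IER2; 7.77%).

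The library effects of single genes were set side by side, also after values had been seen. The library effect of DNAJB1 correlated with that of FOS at r = 0.31 over 15 libraries, the lowest value among the other members, with 0.44 to 0.53 for JUNB, IER2, DUSP1, JUN, and IER3, 0.64 for FOSB, 0.68 for ATF3, and 0.72 for EGR1. It correlated with those of other chaperone genes at 0.96 for HSPH1, 0.95 for HSPA8 and for HSP90AA1, 0.92 for BAG3, 0.90 for HSPA5, and 0.81 for HSPA1A. The effect of FOS correlated at 0.93 with DUSP1, 0.92 with JUNB, 0.89 with IER2, 0.87 with ATF3, 0.86 with JUN and with IER3, 0.80 with EGR1, and 0.68 with FOSB. With the chaperone genes it correlated at 0.13 (HSPA1A) to 0.52 (BAG3). These are descriptions over libraries of which 4 share a cow and 11 come from 3 calves.

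Where a tissue had both stages, the members were mostly higher in the NB library. Pairs of a tissue and a lineage gave 15 comparisons and 150 member values. NB was at least 2-fold above AD, on the log2(CPM + 5) scale, in 105 member values, against 12.6% of all gene values tested, and at least 2-fold below in 6, against 9.77%. The jejunum had 36 of 40 values above (10.1% of all gene values), the duodenum 26 of 30 (23.8%), the cecum 26 of 30 (9.9%), and the colon 17 of 50 (9.52%). COL1A2 barcodes, compared in the colon only, had 0 of 10 values above (7.08%) and a mean of −0.13 (0.09 with markers of several lineages admitted, 0.04 without doublet removal). Without the 12 groups in which B and plasma cell genes exceeded the own check genes, 31 values (51.7% of those left) were above, against 7.8% of all gene values. No duodenum comparison was left, and the values of the others did not change. C1QA barcodes of the jejunum and cecum had 10 of 10 each above, and cecum EPCAM or KRT14 barcodes 8. In the colon, EPCAM or KRT14, CD3E, and COL1A2 barcodes had 1, 2, and 0. The 6 values below were all in the colon (10.9% of gene values there).

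C1QA barcodes carried the largest differences. All 40 of their member values were at least 2-fold higher in NB (8.76% of gene values), and the mean over members was 3.42 log2 units in the duodenum, 3.50 in the jejunum, 3.30 in the cecum, and 2.46 in the colon. The largest single value in this lineage was DNAJB1 in the cecum, 2688 CPM (2644 to 2732) in NB and 69.0 CPM in AD, a difference of 5.19. CD3E barcodes had 26 of 40 values above (10.4%), with means of 1.57, 2.73, 1.58, and 0.62 in the same order. In the AD duodenum, jejunum, and cecum these barcodes held more B and plasma cell genes than own check genes. In the colon that was not so, and 2 values were above. Among other groups without such an excess, EPCAM or KRT14 barcodes had 8 values above in the cecum and 1 in the colon. COL1A2 barcodes of the colon had 0. A link between the B and plasma cell genes and the differences was not tested. The largest member value of all was ATF3 in jejunum CD3E barcodes, 1109 CPM in NB and 17.9 CPM in AD, a difference of 5.61.

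EPCAM or KRT14 barcodes had 17 of 30 values above (6.87%), with means of 2.21 in the jejunum, 2.28 in the cecum, and −0.23 in the colon (0.10 under median-of-ratios scaling). PECAM1 barcodes had 22 of 30 above, but 27.7% of gene values were above there too, and in the duodenum the median of all genes was itself 0.99. Every AD PECAM1 group compared held more of the B and plasma cell genes than of the endothelial check genes. Scaling to the median ratio of genes moved that duodenal mean from 2.62 to 1.60. Admitting barcodes with markers of several lineages moved the C1QA means to 2.07 in the duodenum and 1.63 in the colon, and left 3.16 in the jejunum and 2.82 in the cecum.

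In the colon some members were lower in NB, by 2-fold or more in 3 values of EPCAM or KRT14 barcodes (17.8% of gene values), 1 of CD3E barcodes (11.3%), and 2 of COL1A2 barcodes (10.2%). Over the colon this was 6 of 50 member values, close to the 10.9% of all gene values. FOSB in COL1A2 barcodes was 40.8 CPM (30.2 to 53.9) in NB and 189 CPM (161 to 221) in AD, a difference of −2.08. JUN in the same barcodes was 1102 CPM in NB and 3135 CPM in AD (−1.50). FOSB was also lower in CD3E (220 against 600 CPM, −1.43) and EPCAM or KRT14 barcodes (110 against 265 CPM, −1.23). IER2 (−1.27) and JUN (−1.02) completed the list in EPCAM or KRT14 barcodes. ATF3, IER3, and DNAJB1 were higher in NB in all 15 comparisons, with counting intervals that did not overlap (0.697% of all genes tested), by 0.91 to 5.61, 0.66 to 3.51, and 0.64 to 5.19 log2 units. That share was not matched for level, and counting intervals are relatively wider for genes with fewer UMIs.

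**Figure D5:**
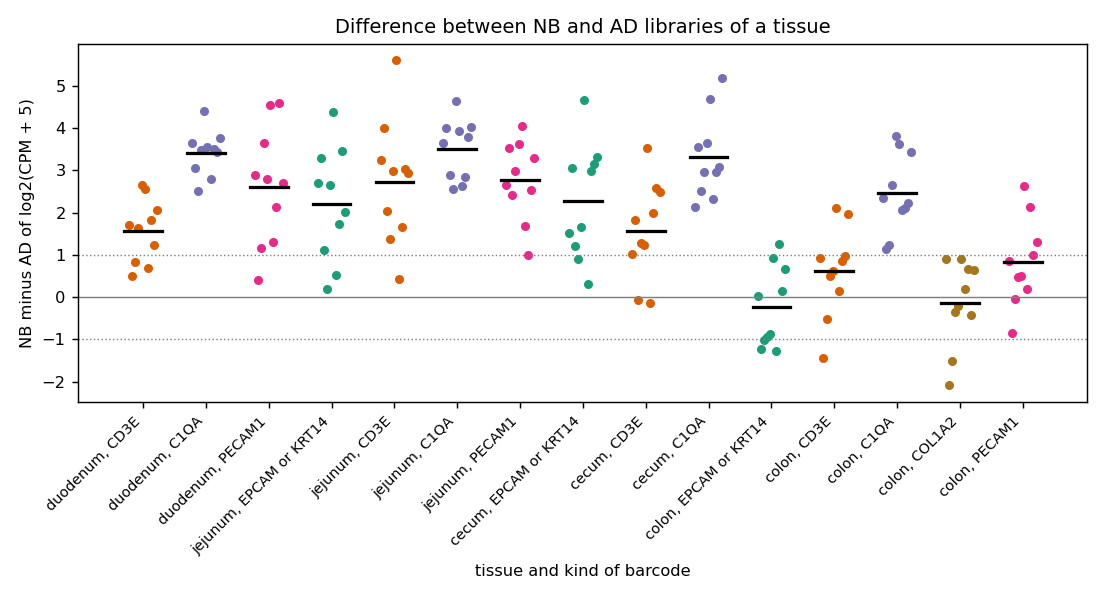
NB minus AD of log2(CPM + 5) for the 10 genes (points, colored by lineage marker) in 15 pairs of tissue and lineage, with the mean as a black bar, 0 as a solid line, and 2-fold as dotted lines. All C1QA points lie above the upper dotted line, whereas colon points of EPCAM or KRT14, CD3E, and COL1A2 reach below the lower one.

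Over all libraries of the intestine, 6 NB and 4 AD, the C1QA ranges were apart for 10 of 10 members, against 12.4% of genes. They were apart for 8 when barcodes with markers of several lineages were admitted. In the C1QA groups of the AD duodenum and colon, B and plasma cell genes exceeded the own check genes. Leaving these groups out cannot make ranges overlap, so the 10 found without them is no check. In CD3E barcodes the ranges were apart for 5 members (8.3%), in PECAM1 barcodes for 3 (31.7%, 3 AD libraries), and in EPCAM or KRT14 barcodes for IER3 alone (5.69%, 3 AD libraries). No member had the AD range above the NB range in any of these 4 lineages (16, 15.3, 6.9, and 3.65% of genes in EPCAM or KRT14, CD3E, C1QA, and PECAM1 barcodes).

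The order of lineages changed with the library. In the 4 AD libraries the mean member level was higher in CD3E than in C1QA barcodes, by 0.56 (jejunum), 0.72 (cecum), 1.05 (colon), and 1.59 log2 units (duodenum). In the 6 NB intestinal libraries it was lower in CD3E barcodes, by −0.21 (jejunum) to −1.03 (rectum). The NB abomasum (−1.06) and liver (−0.41) had the sign of the NB intestine and the salivary gland (0.38) that of the AD libraries. For 7 of 10 members (FOSB, JUN, JUNB, EGR1, IER2, IER3, and DNAJB1) every AD difference lay above every NB intestinal one, against 8.19% of genes. This order was noticed in the data. In each AD library the CD3E or the C1QA group, or both, held more of the B and plasma cell genes than of its own check genes, so the difference could not be computed without such groups. The order was lost when barcodes with markers of several lineages were admitted, where the lowest AD difference was 0.35 and the highest NB intestinal one 0.48. EPCAM or KRT14 barcodes had the lowest level in 10 of the 13 libraries with such a group, among them 5 of the 6 NB intestinal ones, the exception there being the colon, where COL1A2 barcodes were lowest.

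The members rose and fell together, to different degrees. Over the 63 groups the median correlation between pairs of members was 0.70. Each member was also set against the mean of the other 9. ATF3 (r = 0.91), DUSP1 (0.88), and FOS (0.85) were closest, and DNAJB1 (0.62) and IER3 (0.67) farthest. The pair DNAJB1 and IER3 had the lowest value (0.30). Groups of one library share its cells' handling, so these values are descriptive.

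Related genes behaved alike in part. Of 31 other immediate early genes with enough UMIs, 20 had a library spread above their lineage spread (39.8% of all genes), and 20 had a mean over the 15 comparisons at least 2-fold higher in NB, against 4.73% of all genes, with 0 at least 2-fold lower (1.48%). The orphan nuclear receptor NR4A1 had a library spread of 1.43 and a mean difference of 3.30 log2 units. The abundant JUND (0.74), KLF6 (0.48), and BTG1 (0.17) differed less. The phosphatase DUSP2 (library spread 1.45, lineage spread 1.46) and the matrix protein gene CCN1 (1.37 and 1.55) followed lineage as much as library. Of 25 heat shock genes, 20 had the larger library spread and 17 were at least 2-fold higher in NB. BAG3, a cochaperone of HSP70, had a mean difference of 3.83, HSPA6 3.11, HSP90AA1 1.96, HSPA1A 1.67, and HSPA8 1.54. HSPA1A, the inducible HSP70, ran from 13.1 to 15161 CPM and had its lowest library effect in the NB salivary gland (−5.67).

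Genes of the unfolded protein and integrated stress response moved less. Of 16 tested, 13 had the larger library spread but 2 were at least 2-fold higher in NB, HSPA5 (mean difference 1.04) and DDIT4 (2.03), and the median over the list was 0.15. HSP90B1 (0.17) and ATF4 (0.69) are among its most abundant genes, and EDEM1 was −0.40. Of 19 housekeeping genes, 14 had the larger library spread, a higher share than among the other immediate early genes, so that count does not set the stress lists apart. Of the 19, 2 were at least 2-fold higher in NB (GAPDH, 1.14, and TUBB, 1.09) and B2M was at least 2-fold lower (−1.12). ACTB (0.29) and RPLP0 (0.95) were the other abundant ones. The median library spread of the housekeeping genes was 0.42 log2 units, against 1.24 of the members. Over the same 15 comparisons, 8 of 10 members had a mean difference of at least 2-fold, and their median was 2.00 log2 units.

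Outside these lists, the genes whose level followed the mean member level most closely over the 63 groups included SERTAD1 (r = 0.76), NOCT, EIF1, IFRD1, RGS16, H3F3B, PTGES3, PTP4A1, and UBB (0.70). EIF1 is a translation initiation factor and UBB encodes ubiquitin. The library spreads of those named ran from 0.29 (EIF1) to 0.98 (RGS16).

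The level was also uneven among barcodes of one group. Each barcode was thinned to 2000 UMIs so that depth did not differ, which left 74734 barcodes in 60 groups and removed 7804. The loss was larger in some C1QA groups, with 156 of 418 barcodes left out in the NB colon, 396 of 1038 in the AD duodenum, 1359 of 4197 in the AD jejunum, and 61 of 179 in the AD cecum, so the shares below describe their deeper barcodes. In C1QA barcodes of the AD libraries, 77.0 to 91.7% held 5 or fewer UMIs of the 10 genes together, and 0.282 to 2.03% held 25 or more. In C1QA barcodes of the NB intestine, 14.3 to 61.1% held 5 or fewer and 24.8 to 49.5% held 25 or more. Without thinning, over all C1QA barcodes, 70.4 to 88.0% of AD and 14.9 to 70.8% of NB intestinal barcodes held 5 or fewer, and the NB colon (70.8%) lay just inside the AD range. The NB colon had both ends at once, with 61.1% of its C1QA barcodes at 5 or fewer, 24.8% at 25 or more, and 14.1% between. The NB jejunum COL1A2 barcodes were similar, with 48.9%, 28.2%, and 23.0%. The NB liver C1QA barcodes instead had 64.6% between. No lineage here is known to lack these genes, so a background from a cell type without them could not be given.

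Barcodes at the high end were deeper in C1QA groups of the NB intestine. Before thinning, those with 25 or more UMIs of the 10 genes had a median of 10917 UMIs in the NB colon and 10307 in the NB duodenum, and those with 5 or fewer had 3212 and 4888. In COL1A2 barcodes of the NB jejunum the medians were 4331 and 4168. Some other groups went the opposite way. The medians at the high and low end were 5712 and 9128 in NB liver C1QA barcodes and 3549 and 8549 in NB rectum CD3E barcodes. They were 5284 and 10090 in NB colon EPCAM or KRT14 barcodes. The median mitochondrial share was 3.22% at the high end and 4.76% at the low end in NB colon C1QA barcodes. The part of depth in the level was not tested.

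RNA of other cells in the droplets was measured beside these levels. In 214 ordered pairs of lineages within a library, the check genes of one lineage were found in barcodes of the other at a median of 0.807% of their own level (highest 47.1%, for endothelial genes in C1QA barcodes of the NB liver, where PECAM1 barcodes themselves were low in them). The summed members of a lineage were found in the other lineage at a higher share than the check genes in 214 of 214 pairs, and at 17.5% or more. The check genes were chosen for one lineage and the members occur in all, so this outcome was fixed beforehand. Barcodes with markers of other lineages had been left out, and B and plasma cell genes were not in this measure. The part of such RNA in the member levels was therefore not tested.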

How the data were processed

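Single-cell RNA-seq counts of 15 cattle libraries (Chromium, Cell Ranger 3.1.0 and the ARS-UCD1.2 genome per the submitters' processing notes) were used. The values the authors deposited are raw UMI counts in a gene by barcode matrix that was not normalized, and the annotation release is not given in the sources used here. A barcode was kept if it detected 500 to 4000 genes, held fewer than 50000 UMIs, and had less than 40% of them in the 13 mitochondrial protein genes. Scrublet in scanpy 1.11.5 gave doublet scores (2 simulated doublets per barcode, 30 principal components), and the top 0.8% for every 1000 barcodes was taken out. Of 172405 barcodes, 119798 were kept.

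UMIs were summed per library and lineage and scaled to CPM. Ratios used a pseudocount of 5 CPM. Genes with a mean of at least 10 CPM were tested for spread, and genes with at least 10 CPM in 1 of 2 groups for the 2-fold call. Effects were fitted by least squares on library and lineage with marker genes left out. No test was possible with 1 library per tissue and stage. The fits were tested on simulated data.

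The members and the gene lists were chosen with earlier results of these data known. The genes named are the 10 members, the 3 most abundant and the 3 most spread genes of each list (other immediate early, heat shock, unfolded protein and integrated stress response, and housekeeping), and the 10 genes most alike to the mean member level, of which 1 is not reported here. HSPH1, HSPA8, HSP90AA1, BAG3, HSPA5, and HSPA1A were set beside DNAJB1 after values had been seen. Alternatives covered the marker rule, barcode filters, doublet removal, scaling, group size, pseudocount, low-value filter, fold, and each library left out. Python 3.11.15, NumPy 2.4.6, SciPy 1.17.1, pandas 2.3.3, and matplotlib 3.10.9 were used.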

Additional observations from a re-analysis of the deposited data

Results flagged for a closer look

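The NB minus AD difference of FOSB and JUN had opposite signs in different tissues of the same lineage, with a size of at least 2-fold on both sides. FOSB in EPCAM or KRT14 barcodes was −1.23 log2 units in the colon, 3.29 in the jejunum, and 3.05 in the cecum. FOSB in CD3E barcodes was −1.43 in the colon, 3.99 in the jejunum, and 1.84 in the cecum. JUN in EPCAM or KRT14 barcodes was −1.02 in the colon, 1.12 in the jejunum, and 1.21 in the cecum. Each value compares 1 library with 1 library, so the difference between tissues was not tested. The fitted library effect on FOSB was 0.87 in the AD colon, −2.67 in the AD jejunum, and −1.23 in the AD cecum.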

How the results depend on the processing

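No paired analysis was possible because each tissue and stage has 1 library and no second replicate number. NB and AD were compared within tissue, but the 4 AD libraries come from 1 cow and are not replicates of a stage. For 29 results recomputed under the alternatives, 519 values stayed close to the reported one (for a count or share within 1.5 times, for a correlation within 0.1, otherwise within the residual spread) and 18 did not. Part of the 519 could hardly move. Leaving out a library cannot make ranges overlap, and leaving out one that is not in a comparison of ranges changes nothing there. The highest NB intestinal CD3E minus C1QA difference turned sign, from −0.21 to 0.48, as did smaller shifts of the colon COL1A2 mean from −0.13 (0.09 with markers of several lineages, 0.04 without doublet removal) and of the colon EPCAM or KRT14 mean from −0.23 (0.10 with median-of-ratios scaling). With libraries left out in turn, the library spread of the mean member level was 0.955 to 1.09, its lineage spread 0.373 to 0.455, and 10 of 10 members kept the larger library spread, against 36.6 to 41.8% of all genes. The correlation between lineages was 0.631 to 0.796, with 0.631 without the AD jejunum, and 0.62 in NB libraries alone, where 9 of 10 members had the larger library spread. The alternatives below moved a value, and the cause was not tested unless it follows from fewer groups. Admitting barcodes with markers of several lineages gave 73.2% of genes with the larger library spread, C1QA differences of 2.07 in the duodenum and 1.63 in the colon, and 0.48 for the highest NB intestinal CD3E minus C1QA difference. With 2 UMIs of a marker, the cecum EPCAM or KRT14 difference was 1.71 and 7.12% of gene values were past 2-fold above. That share was 6.15% with a pseudocount of 20 CPM, 7.30% with no minimum, and 3.58% for 4-fold, where 1 member value was below. Median-of-ratios scaling gave 1.60 for duodenum PECAM1 barcodes, where it shifted the differences of the 10 members by a median of −1.04. It turned the sign of FOSB there and of IER2 in colon PECAM1 barcodes. Scaling without mitochondrial genes did so for FOS in colon EPCAM or KRT14 barcodes. Groups of at least 200 barcodes left fewer comparisons, with 48 member values above (80% of those remaining, against 9.51% of gene values) and 1 below, and −0.79 for the highest NB intestinal CD3E minus C1QA difference. Leaving out the 12 groups in which B and plasma cell genes exceeded the own check genes, an alternative chosen after seeing the data, left 31 values above (51.7% of those remaining), with 7.80% of gene values. No remaining value changed, and the share moved only because comparisons were lost, among them all of the duodenum.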

Other observations

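The 10 genes took 0.16% (AD duodenum) to 1.18% (NB jejunum) of the UMIs of kept barcodes with no lineage marker. In the NB duodenum that share was 0.884%, beside 0.408% over all kept barcodes, and in the AD duodenum it was 0.16% beside 0.329%. Kept barcodes with markers of several lineages held 0.187% (AD jejunum) to 1.03% (NB ileum). Barcodes removed for 40% or more mitochondrial UMIs held 0.0563% (NB duodenum) to 0.33% (NB cecum), with their mitochondrial UMIs counted in the total.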
